A study of Caenorhabditis elegans with 2 samples.

Results

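The small nuclear RNA (snRNA) genes of C. elegans, which encode the RNA cores of the splicing machinery, were examined for peaks of GFP-tagged XBP-1. Members were the genes with biotype snRNA on the nuclear chromosomes of the Ensembl annotation of WBcel235, which is the assembly ce11. There were 129 of them among 46890 nuclear genes. All 129 had a unique RefSeq symbol, which is used here because the Ensembl names repeat among copies (94 distinct names). The measurement was chromatin immunoprecipitation and sequencing (ChIP-seq) with an anti-GFP antibody on whole hermaphrodite L1 larvae, collected 6 h after they had been synchronized by bleaching and starved as L1. The strain, OP506, has the genotype unc-119(tm4063) III; wgIs506 and expresses, from an integrated transgene, XBP-1 fused at the C-terminus to GFP and FLAG. One label field names the antibody as xbp-1, against the description's anti-GFP. The 2 libraries were biological replicates of 1 group, so places in the genome and replicates could be compared, but not conditions. Both carry the same alleles, and the control experiment that the labels point to was not analysed here.

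XBP-1 is the basic leucine zipper factor of the unfolded protein response of the endoplasmic reticulum. The U1, U2, U4, U5 and U6 snRNAs pair with introns and with each other in the spliceosome, the particle that removes introns from messenger RNA. Nematodes also have spliced leader RNAs, SL1 and SL2, whose 5′ ends are joined onto other transcripts by trans-splicing, and SmY RNAs, which are found with the trans-splicing machinery. In animals, snRNA genes have compact promoters with a proximal sequence element that the SNAPc complex binds. RNA polymerase II transcribes most of them and RNA polymerase III the U6 genes, whose promoters also hold a TATA-like word.

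The annotations do not say which U RNA a gene encodes, so families were built by sequence (linkage at 70% identity) and are called by a leading gene. Words that are known for each class were then looked up in the RNAs, after the families had been seen. The U1-type word ACTTACCTG, the part of U1 that pairs with the 5′ splice site, was in 12 of the 13 RNAs of the sup-6 family. The U2-type word TGTAGTA was in 18 of 19 RNAs of the F08G2.10 family, and the U4-type word AGCTTTGCG in 5 of 5 of the C52E4.8 family. The U5-type word GCCTTTTAC was in 11 of 12 RNAs of the F38E11.10 family, and the U6-type word ACAGAGA in 22 of 24 of the W05B2.8 family. The SL2-type word GGTTTTAAC, the first letters of the SL2 leader, was in 14 of the 19 members of the sls-2 family, which holds the 18 sls-2 genes and ZK1251.14. One RNA each of the SL2, U1 and U4 types is shown, with its class word in capitals, since copies of these RNAs are what the comparisons of peaks turn on. All sequences are from RefSeq on WBcel235, 5′ to 3′ on the gene's strand.
sls-2.2, chrII:5543598-5543707, + strand: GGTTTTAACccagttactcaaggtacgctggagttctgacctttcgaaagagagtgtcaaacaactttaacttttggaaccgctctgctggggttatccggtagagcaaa
sup-6, chrII:12944803-12944967, - strand: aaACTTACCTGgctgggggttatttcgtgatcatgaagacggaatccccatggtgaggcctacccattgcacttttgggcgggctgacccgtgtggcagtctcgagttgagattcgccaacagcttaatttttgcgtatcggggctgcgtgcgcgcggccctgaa
C52E4.8, chrV:11980118-11980261, + strand: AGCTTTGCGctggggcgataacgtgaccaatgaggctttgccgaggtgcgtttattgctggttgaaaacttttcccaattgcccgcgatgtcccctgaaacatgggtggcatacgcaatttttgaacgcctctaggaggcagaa

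The upstream sequences are shown because most summits lay in this stretch. The 90 bp before the start of 8 members with a thresholded summit are shown with 1 shared element in capitals. It was read off these promoters after they had been seen and consists of ACCC and, 6 bases further on, TGTC, allowing at most 1 mismatch over the 8 letters. F38E11.10 is shown without capitals because it holds no such match.
sls-2.8, chrIII:12250375-12250464, + strand: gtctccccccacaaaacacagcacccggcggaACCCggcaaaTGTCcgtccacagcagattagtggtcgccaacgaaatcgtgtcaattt
W05B2.8, chrIII:10989589-10989678, + strand: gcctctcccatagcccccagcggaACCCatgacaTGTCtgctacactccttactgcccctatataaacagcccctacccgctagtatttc
F54D8.7, chrIII:5080899-5080988, - strand: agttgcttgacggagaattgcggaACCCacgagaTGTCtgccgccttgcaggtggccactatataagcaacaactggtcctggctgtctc
sup-6, chrII:12944968-12945057, - strand: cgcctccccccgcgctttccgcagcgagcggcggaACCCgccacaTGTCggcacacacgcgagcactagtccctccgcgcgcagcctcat
T08G5.11, chrV:14028636-14028725, - strand: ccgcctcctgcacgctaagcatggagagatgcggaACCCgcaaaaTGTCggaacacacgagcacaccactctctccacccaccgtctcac
F08G2.10, chrII:13829492-13829581, - strand: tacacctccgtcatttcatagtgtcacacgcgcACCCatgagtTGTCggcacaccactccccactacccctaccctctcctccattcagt
C52E4.8, chrV:11980028-11980117, + strand: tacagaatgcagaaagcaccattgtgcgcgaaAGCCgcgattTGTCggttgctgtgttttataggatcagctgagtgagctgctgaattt
F38E11.10, chrIV:9444552-9444641, + strand: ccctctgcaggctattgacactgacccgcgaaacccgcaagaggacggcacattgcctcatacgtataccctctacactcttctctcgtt

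Of the reached members, sls-2.4 and H27M09.6, which are not shown here, also held no match with at most 1 mismatch. Neither did another 3, all SL2 genes, which are shown. They shared the word GCCTCGAAA, which is in capitals and was likewise chosen after the promoters had been seen. The word covers the place of ACCC, which reads CCTC here, and in sls-2.1 and sls-2.3 TGTC follows at the same spacing as in the element.
sls-2.1, chrII:5844775-5844864, + strand: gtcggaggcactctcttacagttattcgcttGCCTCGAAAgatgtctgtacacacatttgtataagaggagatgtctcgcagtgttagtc
sls-2.2, chrII:5543508-5543597, + strand: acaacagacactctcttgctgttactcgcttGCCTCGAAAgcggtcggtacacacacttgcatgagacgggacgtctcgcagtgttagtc
sls-2.3, chrII:5544274-5544363, - strand: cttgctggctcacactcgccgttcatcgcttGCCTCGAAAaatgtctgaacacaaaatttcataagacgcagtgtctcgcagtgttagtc

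A member was counted as reached when the summit of a deposited region lay within 200 bp of the gene. Of the 129 snRNA genes, 24 had a summit of the thresholded list, which the authors derived from both replicates by the irreproducible discovery rate (IDR). This was 18.6% (Wilson 95% interval 12.8 to 26.2), against 7.03% of all nuclear genes and 11.1% of protein-coding genes. The 24 genes had 23 different peaks, since sup-39 and mir-1831 shared 1: the 22 bp mir-1831 lies inside sup-39 and is annotated as snRNA. Intervals here cover counting error over genes only, and the read depth is unknown.

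Long genes offer more sequence to a summit than short ones, so the window was also centred on the 5′ end alone. All 24 members were still reached (18.6%), against 4.89% of all nuclear genes and 6.64% of protein-coding genes. Other short non-coding genes were reached more often than snRNA genes by the same count: 31.4% of 612 tRNA genes (interval 27.8 to 35.2) and 24.6% of 346 snoRNA genes (20.3 to 29.4). The interval for tRNA genes lies above the snRNA share, while those of snoRNA and snRNA genes overlap. Only 1.44% of the nuclear genome lay within 200 bp of a thresholded summit.

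The relaxed lists, which hold weaker regions and background as well, reached more members. In the pooled relaxed list 50 members had a summit within 200 bp (38.8%, interval 30.8 to 47.4), against 28.3% of all nuclear genes and 43.9% of protein-coding genes. About the 5′ end the shares were 32.6% of snRNA genes, 15.9% of all nuclear genes and 18.5% of protein-coding genes. Replicate 1 reached 49 members and replicate 2 reached 45, with 38 in both. In none of the 4 lists did 70 members have a summit.

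The reached members spanned nearly the whole range of signal. Regions were ranked by the authors' signal value, whose scale is not stated and which serves only to order regions of 1 list. Among 3641 thresholded peaks the 24 members had a median rank of 1353 (order-statistic 95% interval 222 to 2816), from 27 to 3521. Of them 3 were in the top 100, 9 in the top 500 and 10 below the middle of the list. The corresponding median was 1968 for reached tRNA genes, 1306 for snoRNA genes and 1584.5 for protein-coding genes.

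**Figure D1:**
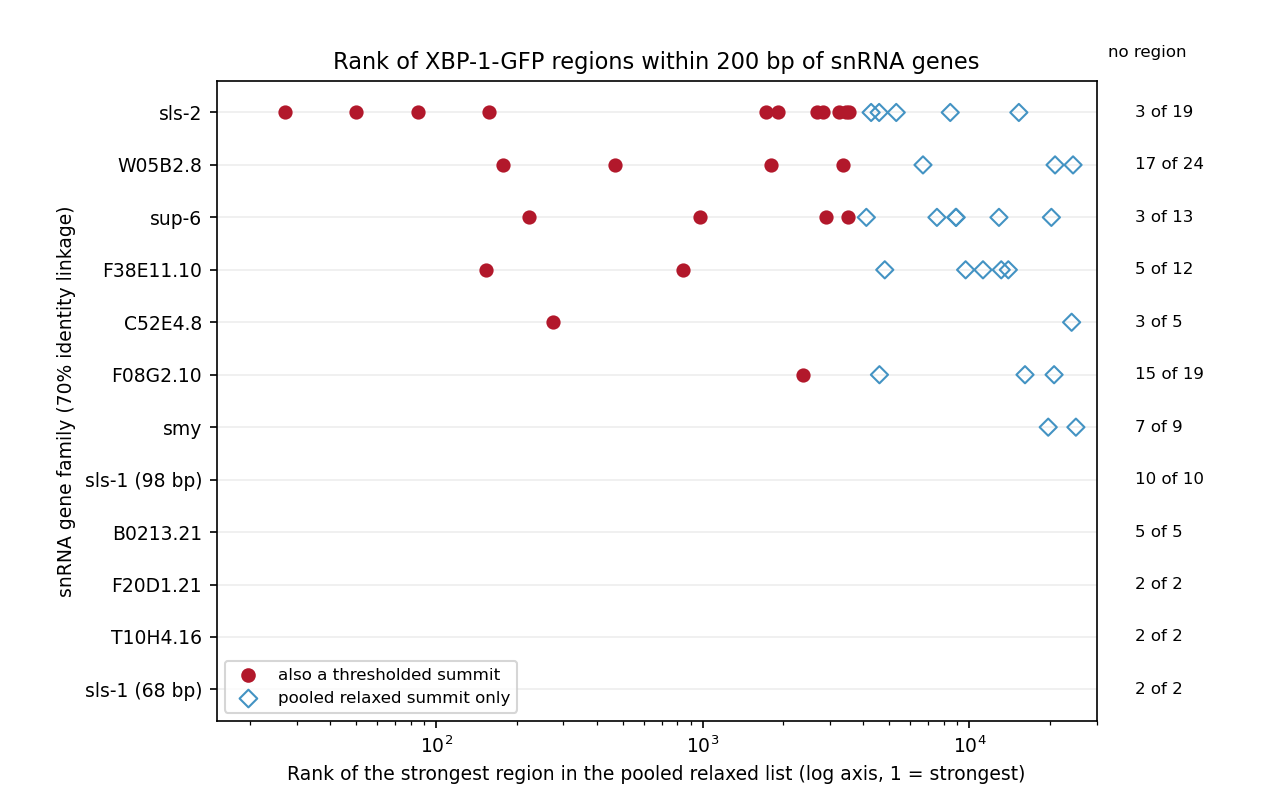
Rank in the pooled relaxed list (log axis, 1 = strongest) of the strongest region within 200 bp of each snRNA gene, by family of 2 or more genes. Filled points also have a thresholded summit and open diamonds do not, and the numbers at the right count members with no region: the sls-2 family holds the 3 strongest ranks, and neither sls-1 family has a point.

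The SL2 genes, which supply the leader used mainly for downstream genes of operons, made up the largest group of reached members. Of the 18 sls-2 genes, 11 had a thresholded summit, and of the whole sls-2 family 11 of 19 did (57.9%, interval 36.3 to 76.9). sls-2.4 had the strongest peak of any snRNA gene (I:4171956-4172514, signal value 1501). It ranked 27 in the thresholded list, 22 in replicate 1 and 32 in replicate 2. sls-2.1 (II:5844628-5845002) ranked 50, with 52 in replicate 1 and 49 in replicate 2. sls-2.2 (II:5543423-5543900) ranked 85, with 80 and 82 in replicates 1 and 2. sls-2.8 (III:12250277-12250551) ranked 157, with 169 and 154. These 4 peaks stood in the same order in both replicates.

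The other 7 reached SL2 genes were much weaker. sls-2.7 ranked 1729, sls-2.9 1922, sls-2.3 2681 and sls-2.5 2816. sls-2.14 ranked 3235, sls-2.13 3453 and sls-2.18 3521, the lowest of the 24. For sls-2.7 the replicates gave ranks of 1366 and 2625, and for sls-2.13 of 2726 and 5411. A further 5 members of the family had a pooled relaxed summit only, and sls-2.15, at pooled rank 4280, was the strongest of these.

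Near-identical SL2 RNAs stood at very different ranks. sls-2.4, sls-2.2 and sls-2.3 form 1 copy group at 95% identity, and all 3 were reached. sls-2.2 and sls-2.3 lie close together on opposite strands and differ at 3 positions of 110 bp (97.3% identity), while their 200 bp upstream were 60% identical. Their ranks were 85 and 2681. sls-2.4, with a gene 96.4% identical to that of sls-2.2, ranked 27. The shared word GCCTCGAAA, on either strand from 250 bp before to 50 bp after the gene start, was found at sls-2.4, sls-2.2, sls-2.3 and sls-2.1, at none of the 105 members not reached, and at 0.200% of 19973 protein-coding genes. It was therefore present at 1 weak peak as well as at the 3 strongest.

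The sup-6 family has the U1-type word. sup-6 and sup-39, both known from suppressor genetics as U1 RNA genes, were reached together with T08G5.11 and H27M09.6, 4 of 13 members (30.8%, interval 12.7 to 57.6). sup-6 (II:12944904-12945137) ranked 222 in the thresholded list, 215 in replicate 1 and 287 in replicate 2. sup-39 (II:6968508-6968697) ranked 977, with 887 and 1090 in the replicates. T08G5.11 ranked 2903 and H27M09.6 3500, so a single gene of the family was in the top 500. Of the 9 others, 6 had a pooled relaxed summit, led by F08H9.11 at rank 4107 and F08H9.10 at 7558. T08G5.11 and F40G12.13 differ at 1 position of the RNA (99.4% identity), and F40G12.13 had no summit in the thresholded or the pooled list.

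The W05B2.8 family, with the U6-type word, had 4 reached members of 24 (16.7%, interval 6.68 to 35.9). W05B2.8 (III:10989492-10989756) ranked 178, with 188 and 170 in the replicates. F54D8.7 (III:5080842-5081047) ranked 470, with 504 and 455. R07E5.16 ranked 1805 and C28A5.7 3344. All 4 lie on chromosome III, where 4 of 7 family members were reached, against 0 of 13 on chromosome IV and 0 of 4 on chromosomes I, II and V together. The W05B2.8 RNA has 14 exact copies among the annotated snRNA genes, counting itself. Of these 14, 3 were reached: W05B2.8, R07E5.16 and C28A5.7. Among the 11 exact copies not reached, Y9C9A.111 had the strongest pooled region, at rank 6700, and the cluster K09B11.11 to K09B11.16 held 1 pooled region in all, at K09B11.16 (rank 24498). Of the reached members 4 of 4 had the word TATATA in the 50 bp before the start, and so did 12 of the 20 not reached.

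In the F38E11.10 family, with the U5-type word, F38E11.10 (IV:9444428-9444697) ranked 154, with 157 and 199 in the replicates, and F32B5.9 (I:2688800-2688985) ranked 846, with 812 and 852. The other 10 members were not reached. F38E11.11, whose RNA is identical to that of F38E11.10 over 122 bp, had a pooled region at rank 13172 and one in replicate 1 at rank 9415, but no thresholded summit and no region in replicate 2. The 200 bp upstream of the 2 genes were 48% identical. F42C5.12 had a pooled rank of 4816, and C53B4.9, 98.4% identical to F38E11.10, had no region in any list.

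The C52E4.8 family, with the U4-type word, showed the same contrast between copies. C52E4.8 (V:11979924-11980173) ranked 275, with 247 and 328 in the replicates. T11F9.15 encodes an identical RNA of 144 bp and had a pooled region at rank 24198 and one in replicate 2 at rank 20914, but no region in replicate 1. K03B8.10 and T11F9.16, each 1 position away (99.3% identity), and F10D2.13 had no pooled region. The C52E4.8 summit lay 59 bp upstream of that gene and 336 bp from the nearest start of a protein-coding transcript, that of the Sm protein gene snr-4.

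The F08G2.10 family, with the U2-type word, was the least reached of those with any thresholded summit: F08G2.10 alone of 19 members (5.26%, interval 0.935 to 24.6), at rank 2367. Its summit was 82 bp upstream. Replicate 1 had a summit within 200 bp there, at rank 2174, and replicate 2 had a region overlapping the peak but no summit within 200 bp of the gene. The neighbouring copies F08G2.11 and F08G2.9 had pooled ranks of 4599 and 16176.

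Apart from mir-1831, which shares the peak of sup-39 and stands alone by sequence, the remaining families held no thresholded summit. The 12 sls-1 genes, which encode the SL1 RNA and lie in tandem on chromosome V, had no summit in any of the 4 lists. Of the 10 smy genes (SmY RNA), 2 had a pooled relaxed summit, smy-12 at rank 19768 and smy-8 at 25108. The B0213.21 family of 5, the families of F20D1.21 and T10H4.16 with 2 members each, and the single genes C35D6.6, C35D6.7, F56A12.5 and W07G1.24 had none in the thresholded or the pooled list. M163.13, a single gene on chromosome X, had a pooled region at rank 4383, with 4059 and 4516 in the replicates. Among members without a thresholded summit, the 6 with the strongest pooled regions were F08H9.11, sls-2.15, M163.13, sls-2.17 (4587), F08G2.11 and F42C5.12.

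Counted by near-identical copies (95% identity), the 129 genes formed 56 groups, of which 16 had a reached member (28.6%, interval 18.4 to 41.5). A group was counted when any of its copies was reached, which favours large groups. The share is therefore not like the share of genes, and it was not computed for other gene classes. One of the 16 is mir-1831, whose peak is that of sup-39. Of the 10 groups with 2 or more genes, 7 had a reached member, and in 6 of these 7 some copies were reached and others were not. The largest group is that of R07E5.16 and W05B2.8, with 4 of 20 members reached, followed by 1 of 18 in the group of F08G2.10 and 4 of 12 in that of sup-6. The smallest mixed group is the pair sls-2.13, reached at rank 3453, and sls-2.12, not reached, whose RNAs were 96.4% and whose 200 bp upstream were 74% identical. Family members differed widely in how much they shared upstream. In the F38E11.10 family the median identity was 93.5% over the gene and 49.5% over the 200 bp upstream (at most 68.5%), and in the W05B2.8 family 99.0% and 48.5% (at most 96%). Pairs with identical 200 bp upstream occurred in the F08G2.10 and sup-6 families, and the 98 bp sls-1 genes were 95 to 100% identical there.

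Chromosomes differed in the share of members reached. It was 8 of 13 on chromosome III, 7 of 16 on II and 5 of 16 on I, but 2 of 41 on IV, 2 of 40 on V and 0 of 3 on X. The shares of protein-coding genes reached by the same rule were 16.4% on III, 10.0% on II, 16.2% on I, 10.5% on IV, 6.95% on V and 10.0% on X. The chromosomes also hold different families: 12 of the 40 members on V are sls-1 genes, and 13 of the 41 on IV belong to the W05B2.8 family. Within the sls-2 family, 3 of 4 members were reached on I, 3 of 3 on II, 4 of 6 on III and 1 of 6 on IV.

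At most reached genes the strongest thresholded summit lay just upstream of the gene start. The median position was -37.5 bp (order-statistic 95% interval -53 to -26, negative being upstream), with quartiles of -53.75 and -25.5 bp. Upstream summits were found at 21 of the 24 genes, and 18 lay from 60 to 20 bp before the start. sls-2.9, at -102 bp, was the farthest upstream. The exceptions were sls-2.14 at 6 bp and sls-2.13 at 88 bp, both inside the gene, and C28A5.7 at 126 bp, past the end of a 102 bp gene. Reached tRNA and snoRNA genes had medians of -24 and -53 bp, and protein-coding genes -119 bp when the window was centred on the 5′ end.

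The position repeated between the replicates for most genes. In 23 members with a summit in both, the 2 summits differed by a median of 10 bp, and by at most 15 bp at 17 of them. At sls-2.1 both were at -40 bp, at F38E11.10 both at -56 bp and at sls-2.9 both at -102 bp. They were far apart at C28A5.7, with -26 bp in replicate 1 and 134 bp in replicate 2, and at R07E5.16, with -56 and 59 bp. At sup-6 the summits were at -2 and -51 bp, on either side of the thresholded one at -23 bp.

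**Figure D2:**
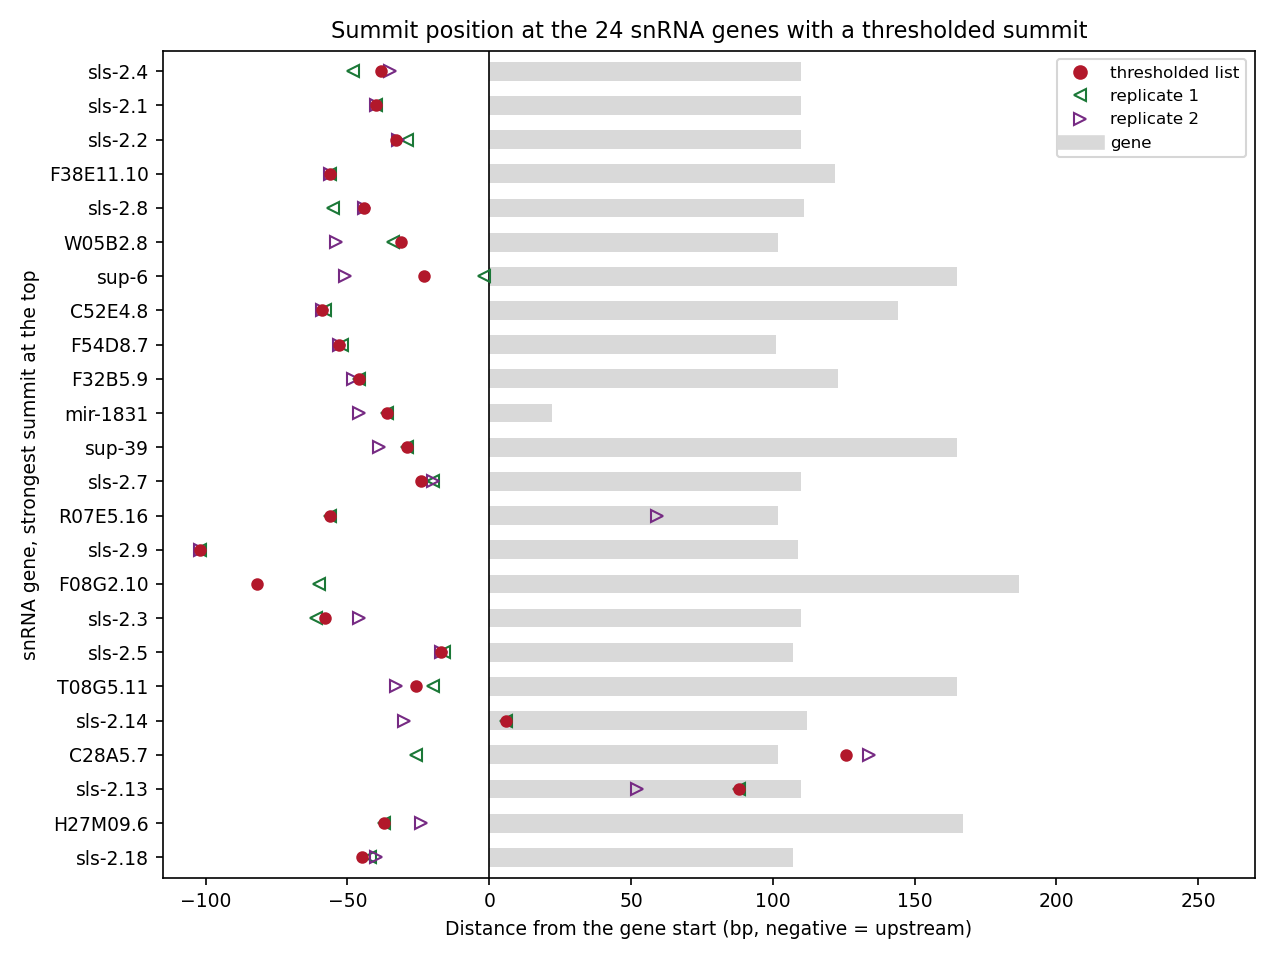
Position of the strongest summit relative to the gene start (bp, negative = upstream) at the 24 reached snRNA genes, strongest at the top, in the thresholded list (points) and in replicates 1 and 2 (triangles), with the gene as a grey bar to scale. The thresholded points lie upstream of the start at 21 of 24 genes, and the replicates part most at C28A5.7 and R07E5.16.

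Protein-coding starts were often near as well. For 24 of 24 reached members the summit was nearer to the snRNA gene start than to the nearest annotated protein-coding transcript start, which the choice of members by a 200 bp distance fixes in large part. Such a start lay within 1000 bp of the summit at 15 of them, the nearest being that of W06D4.3, 121 bp from the summit of sls-2.7, and of syp-4, 171 bp from that of H27M09.6. A protein-coding start stood within 1000 bp of the gene at 16 of the 24 reached members and at 62 of all 129. Without such genes, 8 of 67 members were reached (11.9%, interval 6.18 to 21.8), with a median rank of 2369 and a median position of -27 bp. This interval takes in both the 7.03% of all nuclear genes and the 11.1% of protein-coding genes. About the 5′ end, where the same members were reached, those shares were 4.89%, below the interval, and 6.64%, inside it. Neither comparison set was filtered in the same way, so a higher share at snRNA genes is not shown without these members.

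Few further members were gained beyond 100 bp. The farthest member inside the 200 bp was sls-2.9 at 102 bp, after F08G2.10 at 82 bp and C52E4.8 at 59 bp. Just outside were smy-1, with the peak at rank 315 at 212 bp, then sls-2.6 at 361 bp and sls-2.15 at 493 bp, whose nearest peak was that of sls-2.14. Within 50 bp 19 members were reached, within 500 bp 27 and within 1000 bp 28, against 3.85%, 10.4% and 13.0% of all nuclear genes.

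Ranks in the 2 replicates ran together among reached members. In 19 of 23 genes with a summit in both replicates the ranks were within 1.5 times of each other, although the lists hold 30000 and 28535 regions. The medians were 1126.5 in replicate 1 (24 genes) and 1090 in replicate 2 (23 genes). Members without a thresholded summit had medians of 9661 in replicate 1 (25 genes) and 15530.5 in replicate 2 (22 genes). The thresholded list was made from these lists, so their closeness at reached members is partly how the list was chosen.

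**Figure D3:**
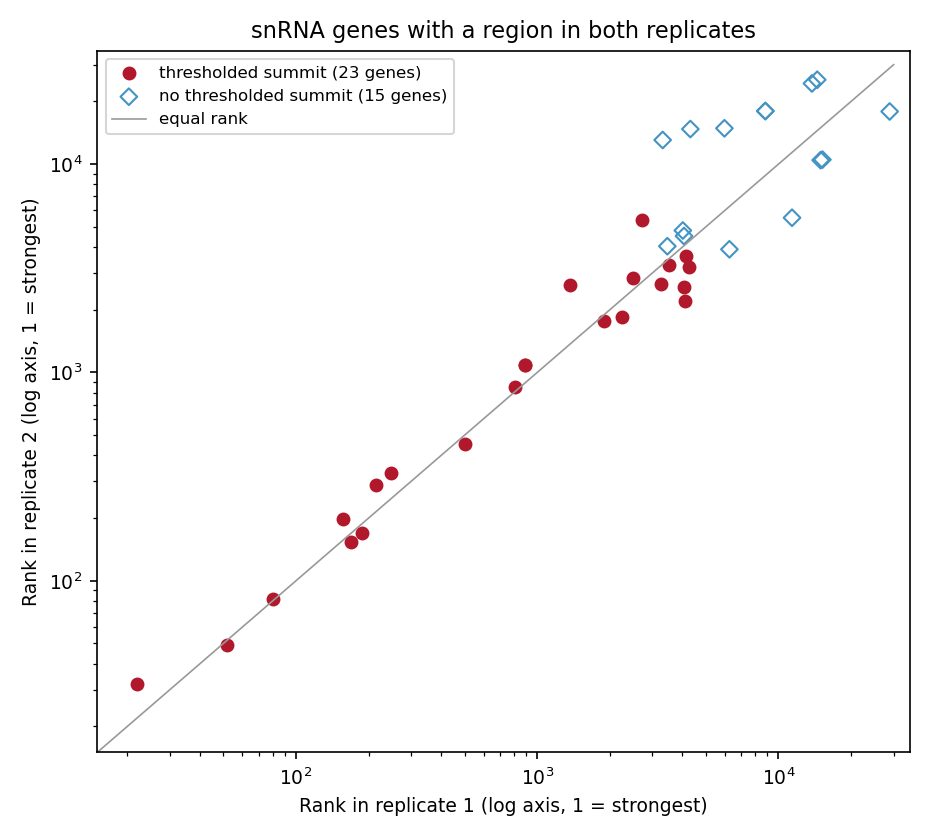
Rank of the strongest region within 200 bp in replicate 1 (x) and replicate 2 (y), log axes with 1 = strongest, for the 38 snRNA genes with a region in both replicates. Points are the 23 genes with a thresholded summit, which follow the line of equal rank, and diamonds the 15 genes without one, which scatter more.

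The relaxed regions were less well placed. Of the 26 members with a pooled relaxed summit and no thresholded one, 12 had it upstream of the start, 8 of them from 60 to 20 bp before it. It lay inside the gene at 5 members and past its end at 9. The median position was 17.5 bp.

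The upstream element was not confined to reached members, but it was less frequent in members with neither a thresholded nor a pooled summit. With no mismatch, in the 100 bp before the start and on the gene's strand, it was in 13 of 24 reached members (54.2%, interval 35.1 to 72.1). It was also in 17 of the 26 members with a pooled relaxed summit only (65.4%, 46.2 to 80.6) and in 13 of the 79 with neither (16.5%, 9.88 to 26.1). Among protein-coding genes 0.110% had it, among tRNA genes 0.490% and among snoRNA genes 7.80%. With at most 1 mismatch it was in 18 of 24 reached members, 23 of 26 with a pooled summit only and 44 of 79 with neither, against 1.94% of protein-coding genes. In both counts of reached members, sup-39 and mir-1831 hold the same copy of the element. The element was chosen from these promoters, and members of a family are copies, so the shares describe the genes and test nothing.

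The element's median distance from the gene start was much the same in both kinds of members. Its centre was at a median of -51 bp in the 18 reached members with a match (from -87 to -47 bp) and -50 bp in the 67 members not reached (from -63 to -14 bp). By family, 11 of 19 sls-2, 9 of 13 sup-6, 7 of 12 F38E11.10, 6 of 19 F08G2.10, 5 of 24 W05B2.8 and 2 of 5 C52E4.8 members held it exactly. Of the 9 genes of the smy family 1 held it exactly and 9 with at most 1 mismatch, although none had a thresholded summit. No sls-1 gene held it. Relative to the element's centre, the summit lay at a median of 18 bp towards the gene, and within 25 bp on either side at 11 of 18 genes.

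Copies of the element elsewhere were seldom near a summit. Of 42 exact copies on either strand within 250 bp of a snRNA gene, 12 had a thresholded summit within 100 bp (28.6%, interval 17.2 to 43.6). Of 3128 copies in the rest of the nuclear genome, 34 did (1.09%, 0.779 to 1.52). For scale, 1.44% of the nuclear genome lay within the wider distance of 200 bp of a thresholded summit. The element was read off promoters of reached snRNA genes, so this contrast is in part set by that choice and tests nothing.

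**Figure D4:**
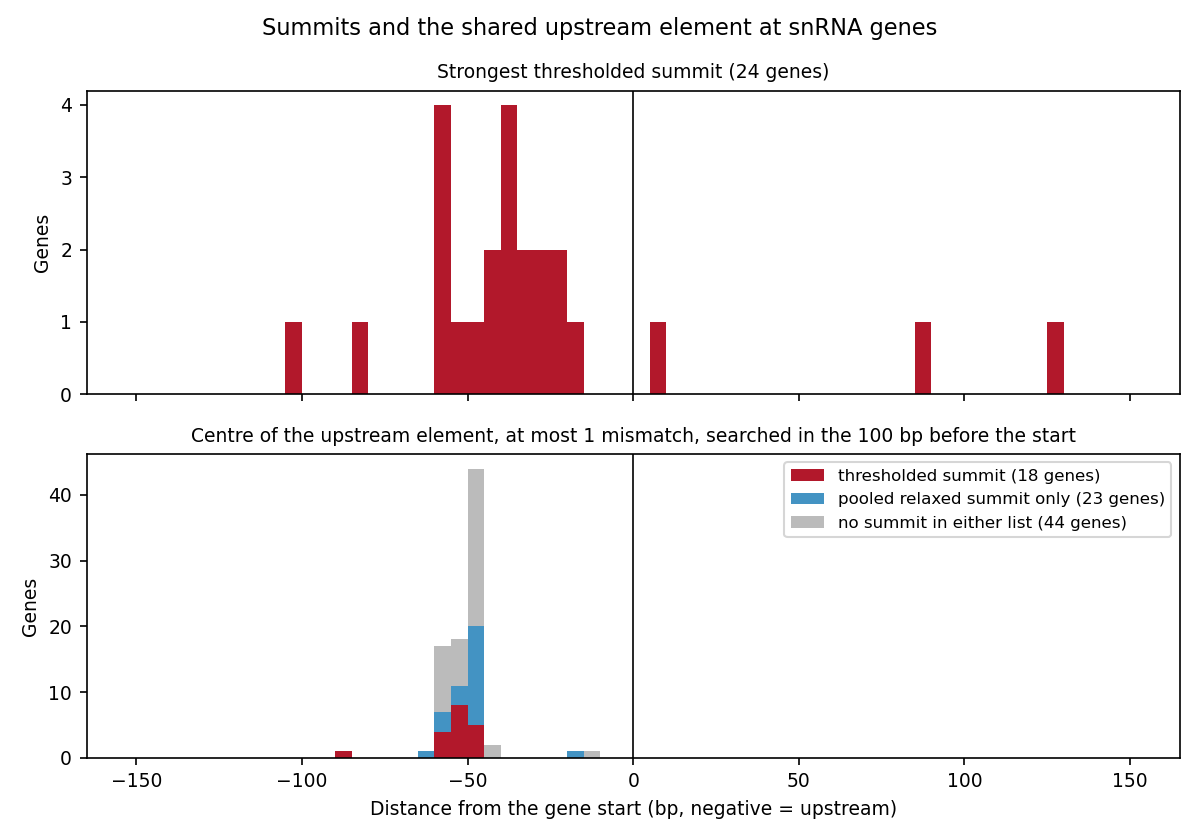
Distances from the gene start (bp, negative = upstream) of the strongest thresholded summit at the 24 reached genes (top) and of the centre of the upstream element, with at most 1 mismatch, in the 85 snRNA genes that hold it (bottom, stacked by the lists that reach the gene). Both pile up between 60 and 20 bp upstream, and the element's median centre is near -50 bp both in genes that were reached and in those that were not.

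Words known for XBP-1 and related bZIP factors were rare at these peaks. In the window from 250 bp before to 50 bp after the gene start, on either strand, TGACGTG was found at 1 of 24 reached members (H27M09.6), 3 of 105 not reached (2.86%) and 2.93% of protein-coding genes. CACGTG, TGACGTCA and CCACGT were at none of the 24, against 10, 3 and 10 of the 105, and 5.82%, 1.51% and 8.88% of protein-coding genes. CACGTG and CCACGT can overlap. Within 50 bp of the summit none of the 4 words was found at the 24 members, and 3.43%, 5.47%, 1.68% and 5.93% of all 3641 thresholded summits had them. A count of 0 of 24 allows a share of up to 12.5%. The 4-letter core ACGT, added afterwards, was within 50 bp of the summit at sls-2.4, sls-2.2 and F38E11.10, 3 of 24 (12.5%), against 30.1% of all thresholded summits. GAGAGAGA and GATAAG were at 0 of 24 reached members, 0 and 8 of 105 others, and 3.54% and 16.7% of protein-coding genes. TATAAA was at 8 of 24 reached members, 32 of 105 others and 37.9% of protein-coding genes, and within 50 bp of the summit at 4 of 24 members (16.7%), against 4.56% of all thresholded summits.

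Words inside the RNAs were found in both kinds of members. The Sm-site word ATTTTTG, part of the site on which the Sm ring assembles, was in 16 of 24 reached RNAs and 56 of 105 others. It was in 19 of 19 members of the F08G2.10 family, 13 of 13 of the sup-6 family and 0 of 24 of the W05B2.8 family; U6 RNA is known to carry an Lsm ring instead. A run of TTTTT within 20 bp after the gene end was found at 2 of 24 reached genes and 11 of 105 others.

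Repeated sequence can keep reads from being placed, so the share of 36 bp words found once in the nuclear genome was computed over each gene and 200 bp on either side. The read length is not given in the sources used here. The median share was 85.8% in reached members (lowest 59.6%), 80.2% in members with a pooled relaxed summit only and 76.6% in the 79 members with neither. The 12 sls-1 genes had shares from 0 to 22.5%. All 24 reached members were among the 107 with a share of 50% or more (22.4%, interval 15.6 to 31.2), and 6 of the 37 with 90% or more were reached (16.2%, 7.65 to 31.1). Of the members in neither list, 24 had 90% or more, the smy genes among them with 93.0% at least. Over the 200 bp upstream of the start alone, the median share was 100% in reached members and 94.2% in those with a pooled relaxed summit only. It was 100% in members with neither, so the medians did not fall in step there. The lower quartiles upstream were 100%, 82.6% and 31.5% in the same 3 sets. The part of repeated sequence in the missing regions was not tested.

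**Figure D5:**
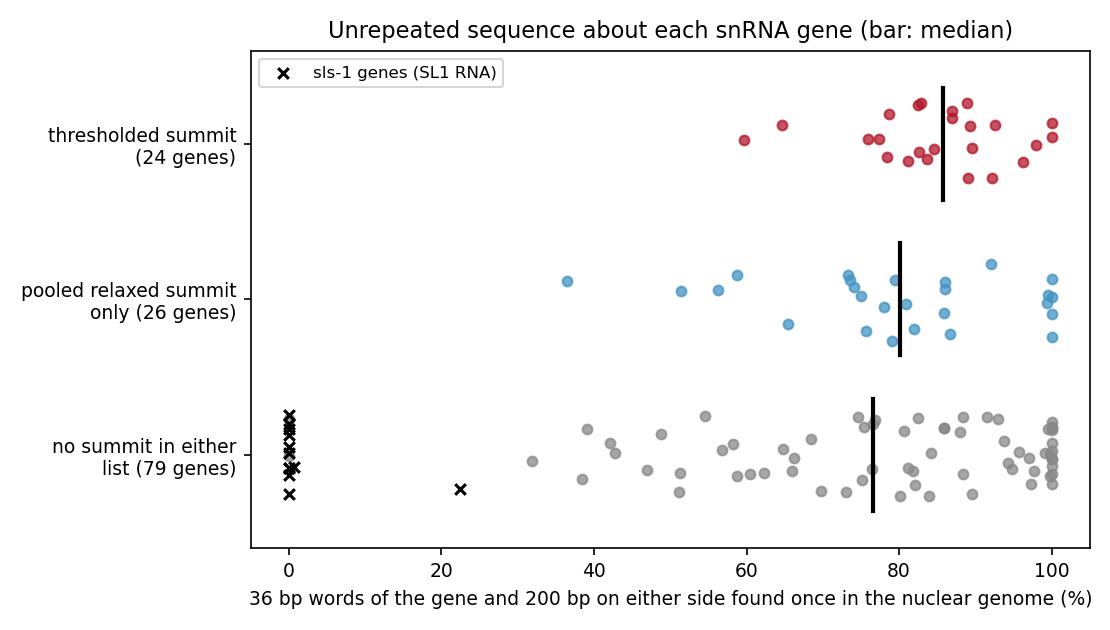
Percentage of 36 bp words found once in the nuclear genome, over each snRNA gene and 200 bp on either side, for members with a thresholded summit, with a pooled relaxed summit only and with neither (bars: medians of 85.8%, 80.2% and 76.6%). Crosses mark the 12 sls-1 genes, at 22.5% or less, and many genes with neither summit lie as far right as the reached ones.

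Genes for the proteins that make and use snRNAs were taken from lists of names, of which 95 of 118 matched a protein-coding gene. Matching was by name only. The matched genes snpn-1, trpp-1 and rnp-8 are not known to act on snRNAs, so the shares describe the lists as written. A thresholded summit in the promoter window, from 1000 bp upstream to 200 bp downstream of a transcript start, was found at 56 of the 95 (58.9%, interval 48.9 to 68.3), against 15.5% of all protein-coding genes. Their median rank was 1583. The lists were chosen with earlier results of these data known and were not set against matched genes. The difference from 15.5% therefore tests nothing. The 56 genes had 55 different peaks, since ints-9 and the spliceosome gene snu-66 were given the same peak, at rank 1031. The summit of C52E4.8 is also the one given to snr-4. Without snr-4 the count was 55 of 94 genes.

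Among the snRNA promoter and 3′ end machinery, 11 of 21 genes had a summit (52.4%). ints-4, ints-9 and ints-1, subunits of the Integrator complex that cuts snRNA 3′ ends, ranked 59, 1031 and 1184, and snpc-3.4, a SNAPc subunit gene, ranked 1212. brf-1, a subunit of an RNA polymerase III factor, and ints-13 had none. snpc-4, for the largest SNAPc subunit, ranked 1875, and snpc-1.1, snpc-1.2, snpc-1.3, snpc-3.1 and snpc-3.2 had no summit, so 2 of 7 SNAPc genes had one; these 6 were named after their values were seen. On the snRNP assembly and transport list, 6 of 11 genes had a summit (54.5%). They were led by imb-1 (importin beta, 792), ran-1 (the GTPase Ran, 1634), snpn-1 (1815) and xpo-1 (exportin, 2290). The gene snpn-1 encodes snapin and not snurportin, so this count holds a gene outside snRNP transport. ima-3 and ncbp-2 had none.

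Of the Sm and Lsm ring genes, 11 of 15 had a summit (73.3%, interval 48.0 to 89.1), the highest share of the lists. snr-4 ranked 275, snr-1 486, lsm-3 891 and snr-6 989, and lsm-4 and lsm-8 had none. Of the snRNP and core spliceosome proteins, 26 of 44 had a summit (59.1%). mog-4, a splicing helicase, ranked 150, prp-19, a ubiquitin ligase of the spliceosome, 192, syf-2 334 and teg-1 395, and cdc-5L and mog-1 had none. Of the trans-splicing proteins, sna-3 (937) and sna-2 (1859) had a summit, and sna-1 and sut-1 had none.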

How the data were processed

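ChIP-seq of GFP-tagged XBP-1 in L1 larvae gave 2 biological replicates of 1 group, per the labels. Peak lists on ce11 were used as deposited: relaxed regions of replicate 1 (30000), of replicate 2 (28535) and of the pooled replicates (26088), and 3641 peaks thresholded by IDR, per the deposited file lists. Column 7 is a signal score that the authors' caller gave. For its scale, the aligner, the caller and any control, details were not given in the sources used here. Column 10, the deposited distance from the region start to the summit, gave the summit. Read depth is unknown, so intervals cover counting over genes only. The ce10 lists were not used. Some sequences are not reported here.

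Genes came from Ensembl 115 and symbols and sequence from RefSeq, both WBcel235. With Python 3.11.15, pandas and edlib, each gene was given its strongest summit within 200 bp. Where 1 region carried several summits, the strongest by score was used. Identity was 1 minus edit distance over the longer length, with single linkage at 95% for copies and 70% for families. Assignment and linkage were checked on simulated data. No hypothesis test was made, because the members and lists were chosen with earlier results of these data known.

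Named genes were the 25 strongest reached members (there were 24), the 6 strongest with a relaxed region only, copies in mixed groups, members at the 200 bp edge, and per pathway list 4 genes with the strongest summit and 2 without; other members were named to describe their family. Alternatives covered the distance, the list, copies, neighbouring genes, each replicate left out and sequence repeats.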

Additional observations from a re-analysis of the deposited data

How the results depend on the processing

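No paired analysis was possible because the libraries form 1 group. The share of snRNA genes with a thresholded summit (18.6%) stayed between 16.2 and 22.4% with distances of 100 to 1000 bp, the 5′ end alone, peak overlap and the 3 alternatives added after seeing the data. It was 10.9% with only the 1820 strongest peaks, which follows from using fewer peaks. With each copy group counted once it was 28.6%, but a group counts when any copy is reached, so this is not the same measure. It was 11.9% without genes near a protein-coding start, and the cause of that was not tested. Leaving out 1 replicate, by taking the 3641 strongest regions of the other, gave 17.1 to 17.8%. For the pooled list (38.8%), the whole relaxed list of the other replicate gave 34.9 to 37.98%. The median position stayed between -40 and -27 bp in all alternatives run, and -40 to -36 bp with 1 replicate left out. The median rank stayed between 887 and 2369, inside the interval of 222 to 2816, which is wide at 24 genes; with 1 replicate left out it was 887 to 1090. Shares for copy groups (23.4 to 28.9%) and pathway genes (56.8% with 500 bp upstream) stayed within their intervals. Unknown depth, 2 libraries, no control used here and RNA copies in which reads cannot be told apart limit what an absent peak shows.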
